A study of Mus with 96 samples.

Results

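Xenobiotic handling in the liver was followed through 9 transcripts in mouse livers with and without *Bmal1* in hepatocytes. The members were fixed by gene symbol and sorted by role into 3 receptors (*Nr1i2*, *Nr1i3*, and *Ahr*) and 6 effectors (*Por*, *Alas1*, *Cyp1a2*, *Cyp3a11*, *Cyp3a13*, and *Cyp3a25*). All 9 were found among the 55487 genes of the count table, and all 9 passed the filter on low counts that kept 15548 genes.

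*Nr1i2* encodes the pregnane X receptor (PXR), *Nr1i3* the constitutive androstane receptor (CAR), and *Ahr* the aryl hydrocarbon receptor. These proteins sense drugs, bile acids, steroids, and planar aromatic compounds, and PXR and CAR bind DNA with the retinoid X receptor whereas AHR binds it with ARNT. Their classical targets are cytochrome P450 genes, with *Cyp1a2* the best known AHR target in liver and *Cyp3a11* the best known PXR target in mouse. P450 enzymes need heme, whose synthesis is set by 5-aminolevulinate synthase (*Alas1*), and electrons from NADPH, which are delivered by P450 oxidoreductase (*Por*). The PAR bZIP factors DBP, TEF, and HLF, which are outputs of the circadian clock, are known regulators of *Nr1i3*, *Alas1*, and *Por* in liver.

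RNA of 96 livers was measured by BRB-seq, in which barcoded libraries are pooled and sequencing covers the 3′ end of the transcripts. Hep-Bmal1KO mice carried AlbCre/+ and Bmal1flx/flx, and their littermate controls, Hep-Bmal1WT, carried Alb+/+ and Bmal1flx/flx, so both genotypes carried the floxed *Bmal1* alleles. Mice, all of C57BL/6J background, entered the study at 8 to 10 weeks of age. They were fed for 2 weeks either normal chow (NC) or cdHFD, a high-fat diet that lacks choline. The cdHFD also contained cholesterol and less protein than NC, so diet differences cover all of these changes together. For each of the 4 combinations of genotype and diet, 24 mice were sampled, 4 at each of Zeitgeber time (ZT) 2, 6, 10, 14, 18, and 22, with ZT counted in hours from lights on. Each group of 4 held 2 males and 2 females, except for Hep-Bmal1WT on cdHFD at ZT14, which had 3 males and 1 female. The albumin promoter restricts Cre to hepatocytes, so that the other cells of the liver kept *Bmal1*. Library names are a letter and a number, in the form of a plate position, and each of the 12 numbers was shared by 8 libraries of 1 combination of genotype and diet and of 2 neighboring ZTs. What goes with this number therefore cannot be told apart from genotype or diet, nor from time of day beyond those pairs of ZTs, in every result on rhythm, peak time, and single ZTs.

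Libraries held between 1861740 and 9718615 reads counted on genes, and the lowest count of any member in any library was 35, for *Ahr*. Levels are CPM, that is, a gene's counts relative to the TMM-scaled library size, and each SD is over mice and so includes the variation over the day wherever all ZTs are pooled. The 3′ reads of *Arntl*, the gene symbol of *Bmal1*, lie outside the floxed part of the gene and do not check the deletion. Even so, mean *Arntl* moved between 20.2 CPM at ZT2 and 0.748 CPM at ZT10 in Hep-Bmal1WT on NC and only between 9.83 and 5.74 CPM in Hep-Bmal1KO on NC. A total of 7 libraries, 2 in each group on NC, 2 in Hep-Bmal1WT on cdHFD, and 1 in Hep-Bmal1KO on cdHFD, lay nearer the other genotype both on core clock genes and on 20 other genes that separated the genotypes. These 7 libraries were kept under their labels, and results that depended on them are also given without them. Because they were identified by genotype-separating genes, leaving them out favors genotype differences by construction, and such values show dependence on these libraries and are no added support. Without them the share of all genes called rose from 12.6% to 17.1% for genotype on NC, from 9.61% to 13% for genotype on cdHFD, from 3.04% to 5.91% for genotype by diet, and from 0.392% to 1.15% for rhythm by genotype on NC.

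Member genes are placed on build GRCm38 by the RefSeq annotation. *Nr1i2* (ENSMUSG00000022809) lies on chr16:38248349-38294849, *Nr1i3* (ENSMUSG00000005677) on chr1:171213934-171218845, and *Ahr* (ENSMUSG00000019256) on chr12:35497979-35534989. *Alas1* (ENSMUSG00000032786) lies on chr9:106233455-106247954 and *Cyp1a2* (ENSMUSG00000032310) on chr9:57676937-57683655. The remaining 4 effectors are on chromosome 5, where *Por* (ENSMUSG00000005514) spans chr5:135670040-135735326 and *Cyp3a13* (ENSMUSG00000029727) spans chr5:137892933-137925610. *Cyp3a11* (ENSMUSG00000056035) at chr5:145854607-145879854 and *Cyp3a25* (ENSMUSG00000029630) at chr5:145977192-146009644 are neighbors in a cluster of closely related Cyp3a copies. How reads shared between such copies were assigned is not given in the sources used here, and values of single Cyp3a genes carry that uncertainty.

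The first question was whether the receptors differed between genotypes on NC. *Nr1i3* was lower in Hep-Bmal1KO, *Ahr* was higher, and *Nr1i2* was not called. *Nr1i3* ranged from 37.6 through a median of 111 to 289 CPM in the 24 Hep-Bmal1WT livers and from 22.9 through 84.2 to 258 CPM in the 24 Hep-Bmal1KO livers. The ranges overlapped widely, and only at ZT14 did all 4 Hep-Bmal1KO livers lie below all 4 controls, as for 4.5% of all genes, without a call at that ZT (edgeR, adjusted p = 0.116). Averaged over the day, *Nr1i3* was 0.714-fold in Hep-Bmal1KO, a log2 fold change of -0.49 ± 0.15 (SE), with adjusted p = 0.0263 in edgeR's quasi-likelihood framework (Benjamini-Hochberg method, 15548 genes), from which every adjusted p marked edgeR here comes.

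*Ahr*, the receptor for planar aromatic ligands, averaged 25.04 ± 7.12 CPM (SD, n = 24) in Hep-Bmal1WT and 30.4 ± 8.88 CPM (SD, n = 24) in Hep-Bmal1KO on NC. Its groups overlapped at all 6 ZTs, and the difference over the day was 0.26 ± 0.08 on the log2 scale (edgeR, adjusted p = 0.0248). The call of *Ahr* was lost in 5 of 12 alternatives and that of *Nr1i3* on NC in 4 of 12. *Nr1i2* averaged 28.8 ± 10.1 CPM in Hep-Bmal1WT and 23.97 ± 8.26 CPM in Hep-Bmal1KO (SD, n = 24 each), a log2 difference of -0.24 ± 0.09 that missed the threshold (edgeR, adjusted p = 0.0916). The *Nr1i2* value depended on the 7 libraries that went against their labels and was -0.33 ± 0.09 without them (edgeR, adjusted p = 0.006). At ZT10, when *Nr1i2* was highest, it measured 50.5, 37.8, 43.95, and 54.96 CPM in the 4 Hep-Bmal1WT livers and 26.99, 21.8, 49.4, and 36.5 CPM in the 4 Hep-Bmal1KO livers. The groups thus overlapped at ZT10, without a call (edgeR, adjusted p = 0.187). The Hep-Bmal1KO liver at 49.4 CPM, within the range of the controls, was one of the 7.

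**Figure D1:**
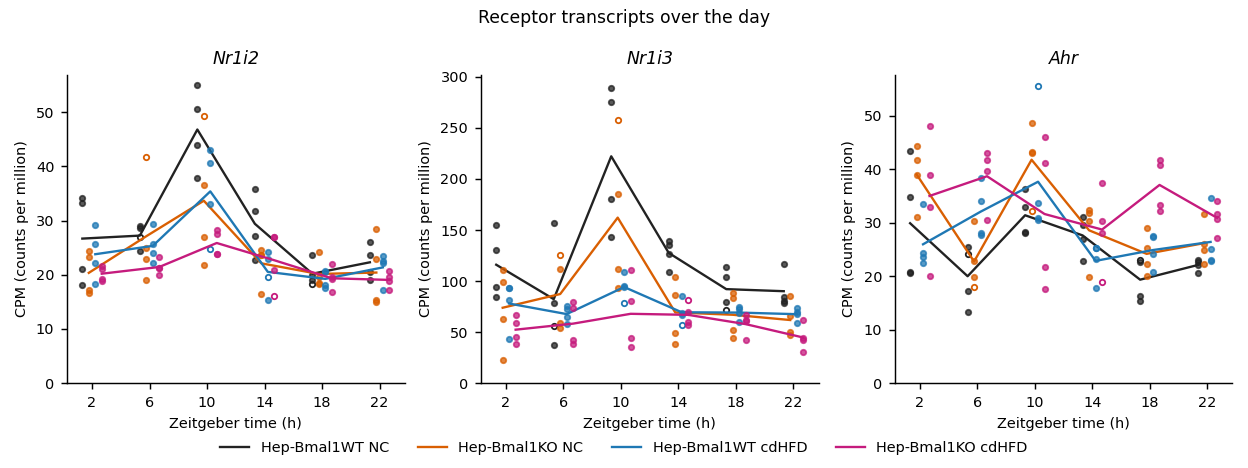
CPM of the 3 receptors against Zeitgeber time in hours, with 1 point per mouse, lines through the mean of 4 mice, and colors for genotype and diet; open points are libraries that went against their genotype label. *Nr1i2* and *Nr1i3* were highest at ZT10 in every combination of genotype and diet, with mean *Nr1i3* at 222 CPM in Hep-Bmal1WT on NC and 67.9 CPM in Hep-Bmal1KO on cdHFD.

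Among the effectors on NC, *Por* and *Cyp3a13* were lower in Hep-Bmal1KO and *Cyp3a25* was higher, so that 5 of the 9 members passed the test in this comparison, against 12.6% of all genes, 7% called as higher and 5.61% as lower. *Por* ranged from 111 through a median of 253 to 588 CPM in Hep-Bmal1WT and from 80.8 through 144 to 528 CPM in Hep-Bmal1KO. The difference over the day was 0.601-fold, or -0.74 ± 0.15 on the log2 scale (edgeR, adjusted p = 0.000645). The gap was widest at ZT14. At that time, *Por* measured 354, 461, 521, and 520.1 CPM in the 4 Hep-Bmal1WT livers and 109, 80.8, 221, and 191 CPM in the 4 Hep-Bmal1KO livers, a log2 difference of -1.62 (edgeR at that ZT, adjusted p = 0.000145). All 4 Hep-Bmal1KO livers lay below all 4 controls, as for 4.5% of all genes at that ZT. On NC, the share of all genes called at single ZTs was 0.894% at ZT2, 0.00643% at ZT6, 2.68% at ZT10, 4.79% at ZT14, 0.617% at ZT18, and 1.19% at ZT22, and 3 members were called at some ZT.

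At ZT10, *Por* measured 455, 432, 501, and 588 CPM in Hep-Bmal1WT and 125, 116, 528, and 252 CPM in Hep-Bmal1KO. The value of 528 CPM came from the same ZT10 liver that stood out for *Nr1i2*, and with it the difference at ZT10 was not called (log2 difference -0.95, edgeR, adjusted p = 0.0535). Without the libraries against their labels the difference at ZT10 was -1.58 (edgeR, adjusted p = 4.91e-06), and at ZT18 it was -1.11 (edgeR, adjusted p = 0.00288), when 7.38% and 2.5% of all genes were called at these ZTs.

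*Alas1*, the rate-limiting enzyme of heme synthesis, had its widest gaps between genotypes at ZT10 and ZT14. At ZT10 it measured 550.1, 527, 637, and 949.9 CPM in Hep-Bmal1WT and 67.9, 73.2, 292, and 225 CPM in Hep-Bmal1KO, with no overlap between the groups, as for 2.59% of all genes with Hep-Bmal1KO below. The log2 difference at ZT10 was -2.02 (edgeR, adjusted p = 0.0068). At ZT14 it measured 325, 663, 779.9, and 557 CPM in Hep-Bmal1WT and 217, 305, 286, and 279 CPM in Hep-Bmal1KO. The groups again did not overlap, as for 4.5% of all genes with Hep-Bmal1KO below, and no call was made (log2 -1.10, edgeR, adjusted p = 0.172). Over the whole day the *Alas1* difference was -0.55 ± 0.26 on the log2 scale and was not called (edgeR, adjusted p = 0.19), with levels between 41.4 and 949.9 CPM in Hep-Bmal1WT.

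The P450 members did not move together with genotype on NC. *Cyp3a13* averaged 131 ± 28.5 CPM in Hep-Bmal1WT and 100.1 ± 19.9 CPM in Hep-Bmal1KO (SD, n = 24 each), a log2 difference of -0.39 ± 0.08 (edgeR, adjusted p = 0.000487). At ZT14 it measured 118, 133, 166, and 177 CPM in Hep-Bmal1WT and 84.7, 75.95, 94.5, and 103 CPM in Hep-Bmal1KO. The log2 difference was -0.73 (edgeR, adjusted p = 0.00704), without overlap, as for 4.5% of all genes with Hep-Bmal1KO below. *Cyp3a25* went the opposite way, with 601 ± 106 CPM in Hep-Bmal1WT and 743 ± 131 CPM in Hep-Bmal1KO (SD, n = 24 each) and a log2 difference of 0.30 ± 0.07 (edgeR, adjusted p = 0.00172). All 4 Hep-Bmal1KO livers lay above all 4 controls for *Cyp3a25* at ZT6, ZT14, and ZT22, as did 2.3%, 5.35%, and 3.51% of all genes, and none of these ZTs gave a call (edgeR, adjusted p = 0.477, 0.477, and 0.495). At ZT22 it measured 701, 533, 478, and 529 CPM in Hep-Bmal1WT and 744, 752, 727, and 719 CPM in Hep-Bmal1KO.

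*Cyp3a11* and *Cyp1a2* gave no call with genotype on NC when both sexes were pooled. *Cyp3a11* ranged from 2660 through a median of 6031 to 14460 CPM in Hep-Bmal1WT and from 4356 through 7579 to 16180 CPM in Hep-Bmal1KO, a log2 difference of 0.15 ± 0.16 (edgeR, adjusted p = 0.64). *Cyp1a2* ranged from 241 through 673 to 945.9 CPM in Hep-Bmal1WT and from 275 through 684 to 923 CPM in Hep-Bmal1KO, a log2 difference of 0.05 ± 0.11 (edgeR, adjusted p = 0.862). The median log2 difference was -0.24 over the 3 receptors and -0.17 over the 6 effectors, against -0.01 over all genes tested. Within sexes, the calls for *Cyp3a13* and *Cyp3a25* were made in males alone and in females alone. Those for *Nr1i3* and *Por* were made in males alone and missed in females alone, and that for *Ahr* was missed in each sex alone. Of all genes, 11.3% were called in males alone and 3.72% in females alone. On NC, both Hep-Bmal1KO libraries that went against their labels were female, and the Hep-Bmal1WT ones were a male and a female. Other members gained a call in 1 sex, *Cyp3a11* as higher in females alone (log2 0.44 ± 0.10, edgeR, adjusted p = 0.0142), *Nr1i2* as lower in males alone (log2 -0.51 ± 0.11, edgeR, adjusted p = 0.00147, against 0.02 ± 0.11 in females alone), and *Alas1* as lower in males alone (log2 -0.89 ± 0.285, edgeR, adjusted p = 0.0389). A call in 1 sex alone does not show that the sexes differed. The test of sex by genotype on NC, chosen after values had been seen, did not call *Nr1i2*, *Nr1i3*, *Cyp3a11*, or *Alas1* (edgeR, adjusted p = 0.142, 0.342, 0.193, and 0.785). *Por*, the member it called, is described below. Few markers of other cells were called for genotype on NC, with 0 of 6 macrophage and 0 of 6 stellate cell markers called by edgeR, whereas 2 of 5 cholangiocyte markers were higher, with sums of 33.2 to 144 CPM in Hep-Bmal1WT and 60.7 to 145 CPM in Hep-Bmal1KO. Of the 4 hepatocyte markers measured, 1 was higher and 1, *Alb* (log2 -0.83 ± 0.145, edgeR, adjusted p = 5.74e-05), was lower in Hep-Bmal1KO. The part of these shifts in the members' genotype differences was not tested.

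**Figure D2:**
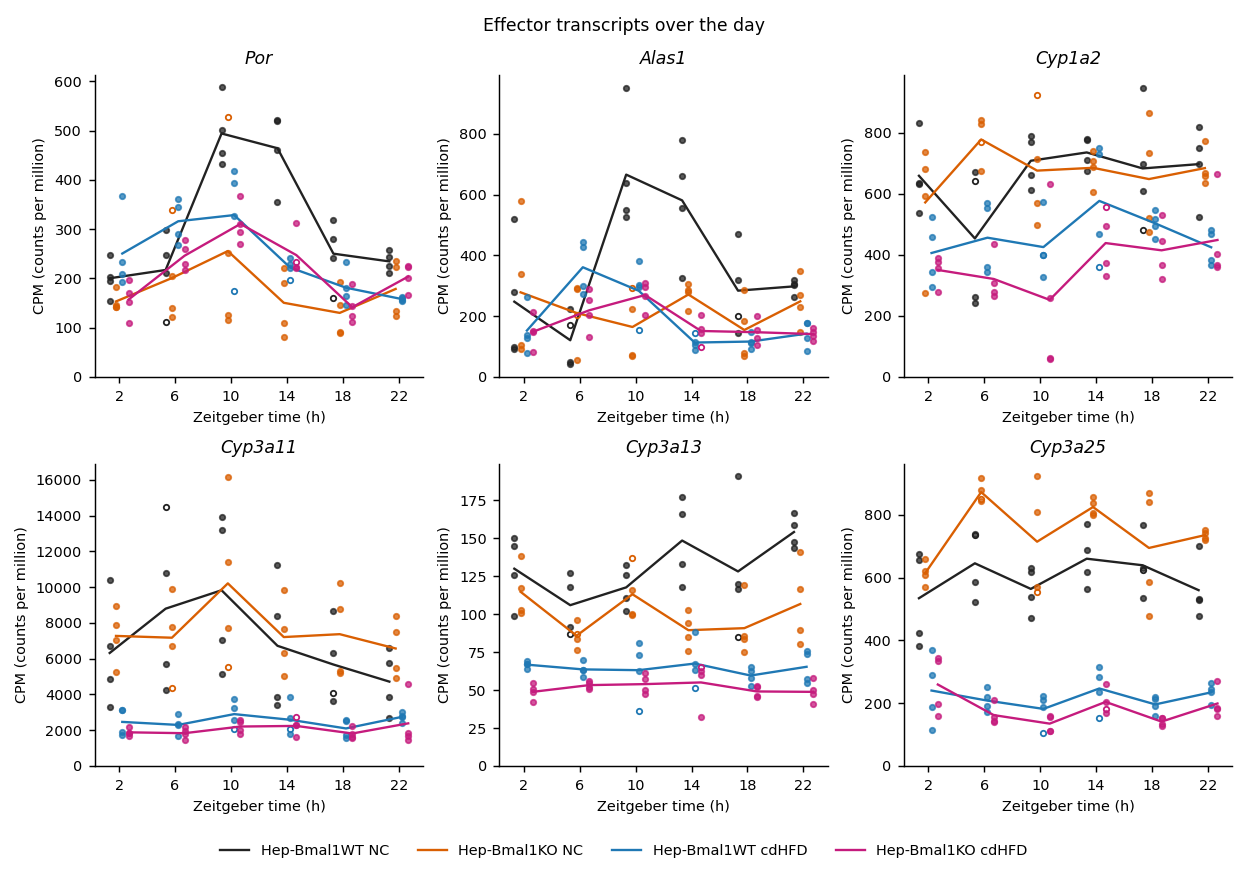
CPM of the 6 effectors against Zeitgeber time in hours, with 1 point per mouse, lines through the mean of 4 mice, and colors for genotype and diet; open points are libraries that went against their genotype label. *Por* and *Alas1* in Hep-Bmal1WT on NC reached means of 494 and 666 CPM at ZT10, and the means of the 3 Cyp3a members were lower on cdHFD at every ZT in both genotypes.

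The second question was whether the genotype difference held under cdHFD, a diet that induces steatohepatitis. Here 2 of the 9 members were called, both as lower, against 9.61% of all genes, 4.62% called as higher and 4.99% as lower. *Nr1i3* averaged 74.3 ± 15.1 CPM in Hep-Bmal1WT and 58 ± 18.9 CPM in Hep-Bmal1KO (SD, n = 24 each), a log2 difference of -0.36 ± 0.10 (edgeR, adjusted p = 0.0133). *Cyp3a13* averaged 64.3 ± 10.5 CPM in Hep-Bmal1WT and 51.5 ± 7.46 CPM in Hep-Bmal1KO (SD, n = 24 each), a log2 difference of -0.32 ± 0.07 (edgeR, adjusted p = 0.000713). These were the members lower in Hep-Bmal1KO on both diets.

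*Por* and *Alas1* were not called on cdHFD. *Por* averaged 243 ± 84.2 CPM in Hep-Bmal1WT and 218 ± 66.8 CPM in Hep-Bmal1KO (SD, n = 24 each), a log2 difference of -0.16 ± 0.09 (edgeR, adjusted p = 0.303). *Alas1* averaged 195 ± 112 CPM and 179.6 ± 64.8 CPM (SD, n = 24 each), a log2 difference of -0.02 ± 0.12 (edgeR, adjusted p = 0.965). At ZT22 *Por* measured 153, 156, 161, and 162 CPM in Hep-Bmal1WT and 166, 224, 200.4, and 225 CPM in Hep-Bmal1KO. All 4 Hep-Bmal1KO livers thus lay above the controls, as for 3.55% of all genes. The groups also did not overlap for *Cyp3a13* at ZT2 and ZT6 and *Cyp3a25* at ZT18, with Hep-Bmal1KO below, and for *Ahr* at ZT18, with Hep-Bmal1KO above. Shares of all genes without overlap were not computed for those ZTs on cdHFD. By edgeR, 0 members were called at any single ZT on cdHFD, with 7 values over all members and ZTs at an unadjusted p under 0.05. The share of all genes called there was 0.367% at ZT2, 0.277% at ZT6, 0.00643% at ZT10, 0% at ZT14, 0.0579% at ZT18, and 0.0129% at ZT22.

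*Ahr* on cdHFD stood at a log2 difference of 0.26 ± 0.10 (edgeR, adjusted p = 0.0835), close to its value on NC. *Cyp3a11* stood at -0.29 ± 0.10 (edgeR, adjusted p = 0.0514) and *Cyp3a25* at -0.28 ± 0.10 (edgeR, adjusted p = 0.0643). These 3 values depended on the libraries against their labels, and without them *Ahr* stood at 0.34 ± 0.09 (edgeR, adjusted p = 0.00638), *Cyp3a11* at -0.33 ± 0.10 (edgeR, adjusted p = 0.0184), and *Cyp3a25* at -0.32 ± 0.10 (edgeR, adjusted p = 0.0188). The median log2 difference on cdHFD was -0.165 over the receptors and -0.284 over the effectors, against 0.01 over all genes. On cdHFD 4 of 6 stellate cell markers and 3 of 5 cholangiocyte markers were higher in Hep-Bmal1KO, with cholangiocyte sums of 52.1 to 215 CPM in Hep-Bmal1WT and 69.7 to 750 CPM in Hep-Bmal1KO, and their part in the members' values was not tested.

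*Cyp1a2* on cdHFD differed by -0.35 ± 0.15 on the log2 scale (edgeR, adjusted p = 0.141), and its spread among Hep-Bmal1KO mice was wide. At ZT10 it measured 575, 400.8, 399, and 327 CPM in Hep-Bmal1WT and 61.5 and 57.2 CPM in the Hep-Bmal1KO males and 258 and 633 CPM in the Hep-Bmal1KO females. The genotype difference was -0.73 in males alone (edgeR, adjusted p = 0.0473) and -0.02 in females alone (edgeR, adjusted p = 0.961) for *Cyp1a2*. Of all genes, 5.16% were called in males alone and 4.16% in females alone. Whether the sexes differed was not tested on cdHFD alone. Over both diets, the term for sex by genotype was not called for *Cyp1a2* (edgeR, adjusted p = 0.43).

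**Figure D3:**
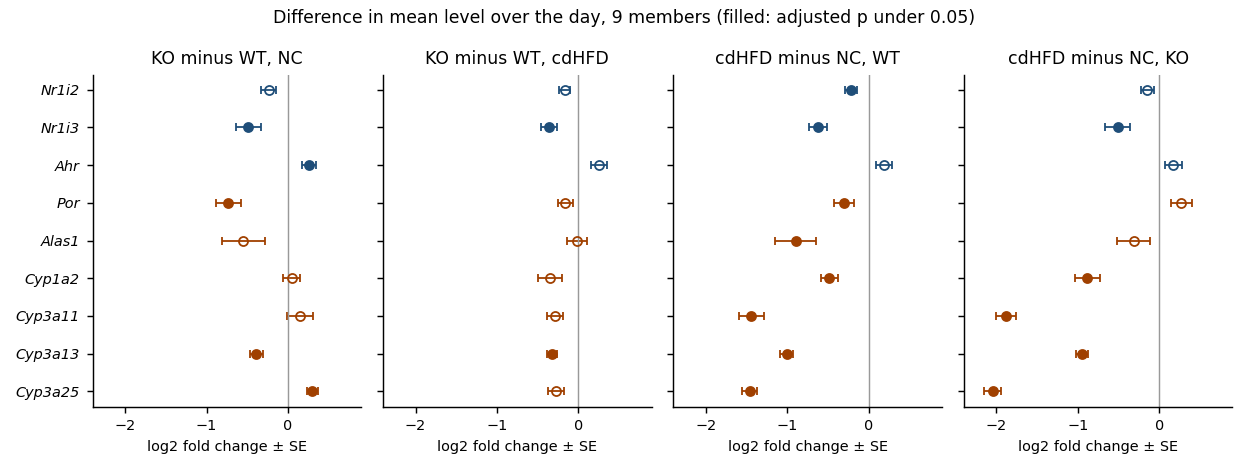
Log2 fold changes of mean level over the day for the 9 members, from edgeR, with SE bars, receptors in blue and effectors in brown, and filled points for adjusted p under 0.05. The Cyp3a members lie farthest left for diet, from -0.95 to -2.05, whereas no member lies beyond -0.74 for genotype.

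The third question was the effect of diet within each genotype. In Hep-Bmal1WT, 8 of the 9 members were lower on cdHFD than on NC, in a comparison that called 55.7% of all genes, 28.7% as higher and 27% as lower. The NC livers of Hep-Bmal1WT serve both in this comparison and in that of genotype on NC. The Cyp3a members changed most. *Cyp3a11* fell from 2660, 6031, and 14460 CPM (lowest, median, and highest of 24) on NC to 1561, 2543, and 3840 CPM on cdHFD, which was 0.368-fold (log2 -1.44 ± 0.16, edgeR, adjusted p = 3.13e-11). *Cyp3a25* fell from 382, 617, and 771 CPM to 104, 217, and 368 CPM without overlap, as for 1.54% of all genes, which was 0.362-fold (log2 -1.46 ± 0.10, edgeR, adjusted p = 1.58e-18). *Cyp3a13* fell from 85.1, 127, and 191 CPM to 35.99, 63.7, and 88.4 CPM, which was 0.497-fold (log2 -1.01 ± 0.08, edgeR, adjusted p = 3.57e-16).

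The enzymes that supply P450s and *Cyp1a2* fell less in Hep-Bmal1WT. *Alas1* was 0.536-fold (log2 -0.90 ± 0.25, edgeR, adjusted p = 0.00197), *Cyp1a2* was 0.714-fold (log2 -0.49 ± 0.10, edgeR, adjusted p = 8.53e-05), and *Por* was 0.811-fold (log2 -0.30 ± 0.12, edgeR, adjusted p = 0.0278). Of the receptors, *Nr1i3* was 0.647-fold (log2 -0.63 ± 0.11, edgeR, adjusted p = 3.39e-06) and *Nr1i2* was 0.862-fold (log2 -0.21 ± 0.08, edgeR, adjusted p = 0.0143). The calls of *Por* and *Nr1i2* were each lost in 5 of 12 alternatives. For *Nr1i2* these included the alternative without the libraries against their labels (log2 -0.16 ± 0.08, edgeR, adjusted p = 0.0784). *Ahr* had a log2 difference of 0.18 ± 0.10 and was not called (edgeR, adjusted p = 0.0943).

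In Hep-Bmal1KO, 5 of the 9 members were lower on cdHFD, in a comparison that called 61.9% of all genes, 32.4% as higher and 29.6% as lower. *Cyp3a25* fell from 479, 775, and 922.7 CPM (lowest, median, and highest of 24) to 111, 159.7, and 344 CPM without overlap, as for 2.55% of all genes, which was 0.242-fold (log2 -2.05 ± 0.10, edgeR, adjusted p = 1.24e-23). *Cyp3a11* fell to 0.271-fold (log2 -1.88 ± 0.12, edgeR, adjusted p = 4.95e-19), *Cyp3a13* to 0.518-fold (log2 -0.95 ± 0.07, edgeR, adjusted p = 1.66e-16), *Cyp1a2* to 0.543-fold (log2 -0.88 ± 0.16, edgeR, adjusted p = 2.67e-06), and *Nr1i3* to 0.702-fold (log2 -0.51 ± 0.15, edgeR, adjusted p = 0.00361).

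*Por* was the effector with a positive diet difference in Hep-Bmal1KO, at 0.27 ± 0.13 on the log2 scale (edgeR, adjusted p = 0.0641). Without the libraries against their labels, the difference was 0.42 ± 0.12 (edgeR, adjusted p = 0.00189). The change was seen in males alone (log2 0.82, edgeR, adjusted p = 3.7e-06) and not in females alone (log2 -0.05, edgeR, adjusted p = 0.711). *Alas1* at -0.31 ± 0.2, *Nr1i2* at -0.145 ± 0.08, and *Ahr* at 0.18 ± 0.11 were not called in Hep-Bmal1KO.

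By role, the median log2 diet difference was -0.215 over the 3 receptors and -0.954 over the 6 effectors in Hep-Bmal1WT, and -0.145 and -0.916 in Hep-Bmal1KO, against 0.01 and 0.02 over all genes. Markers of cell types moved with diet as well. All 4 hepatocyte markers measured (*Alb*, *Ttr*, *Apoa1*, and *Fgb*) were lower on cdHFD in both genotypes, with a median log2 difference of -1.11 in Hep-Bmal1WT and -1.06 in Hep-Bmal1KO. The summed macrophage markers rose from 115 to 287 CPM on NC to 478 to 1238 CPM on cdHFD in Hep-Bmal1WT, with 6 of 6 called, and 5 of 6 stellate cell markers were higher. Pericentral markers summed to 1814 to 4754 CPM on NC and 1231 to 2843 CPM on cdHFD, and periportal markers to 2884 to 6179 and 1377 to 2844 CPM, in Hep-Bmal1WT. Of 5 lymphocyte markers, 3 were higher on cdHFD in Hep-Bmal1WT, with sums of 4.14 to 17.6 CPM on NC and 20.5 to 42.3 CPM on cdHFD, and in Hep-Bmal1KO 2 were higher and 1 lower. In bulk tissue, fewer hepatocytes and less RNA per hepatocyte cannot be told apart, and the part of these shifts in the members' values was not tested.

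The genotype difference itself changed with diet for *Cyp3a25*, the single member called in this comparison, against 3.04% of all genes, 1.04% with a positive and 2% with a negative difference. It was higher in Hep-Bmal1KO on NC and on the lower side on cdHFD, and the genotype difference on cdHFD minus that on NC was -0.58 ± 0.13 on the log2 scale (edgeR, adjusted p = 0.00236). This call was lost in 3 of 12 alternatives, over which the value ranged from -0.83 to -0.36. On NC the 24 Hep-Bmal1KO livers averaged 743 CPM against 601 CPM in controls, and on cdHFD 184 CPM against 218 CPM. For *Por*, the same difference was 0.57 ± 0.18 (edgeR, adjusted p = 0.0629), and without the libraries against their labels, an exclusion that favors such differences, it was 0.75 ± 0.16 (edgeR, adjusted p = 0.0012). *Cyp3a11* stood at -0.44 ± 0.19 (edgeR, adjusted p = 0.209) with all libraries and at -0.59 ± 0.19 (edgeR, adjusted p = 0.0389) without them.

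Rhythms over 24 hours were then examined in each combination of genotype and diet, and a gene was called rhythmic when cosine and sine terms passed edgeR's test jointly. In Hep-Bmal1WT on NC, 3 members were rhythmic, *Nr1i2* (edgeR, adjusted p = 0.0017), *Nr1i3* (edgeR, adjusted p = 0.0448), and *Por* (edgeR, adjusted p = 0.000227), against 19.1% of all genes. The call of *Nr1i3* was lost in 8 of 14 alternatives, with adjusted p values up to 0.317. *Alas1* stood at the threshold (edgeR, adjusted p = 0.0512), although its mean rose from 121 CPM at ZT6 to 666 CPM at ZT10, a ratio of 5.51. The ZT6 mean joined males at 223 and 171 CPM with females at 48.6 and 41.4 CPM. Its fitted log2 amplitude ranged from 0.338 to 1.54 over the alternatives. In Hep-Bmal1KO on NC, 0 of the 9 members were rhythmic by edgeR against 4.34% of all genes, with 2 members, *Nr1i2* and *Nr1i3*, at an unadjusted p under 0.05 and 1 member called by DESeq2. Mean *Nr1i3* there was still 2.62 times higher at ZT10 than at ZT22, and mean *Nr1i2* was 1.67 times higher at ZT10 than at ZT18. Both ZT10 means included the library at 258 and 49.4 CPM that went against its label, and without such libraries the ratios were 2.1 for *Nr1i3* and 1.41 for *Nr1i2*, with unadjusted p values of 0.0667 and 0.0774 (edgeR, adjusted p = 0.301 and 0.323).

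On cdHFD, *Nr1i2* (edgeR, adjusted p = 0.014), *Por* (edgeR, adjusted p = 0.000119), and *Alas1* (edgeR, adjusted p = 0.000163) were rhythmic in Hep-Bmal1WT, against 14.6% of all genes. The call of *Nr1i2* was lost in 7 of 14 alternatives. *Por* (edgeR, adjusted p = 0.0121) and *Alas1* (edgeR, adjusted p = 0.0262) were also rhythmic in Hep-Bmal1KO, against 3.83% of all genes. In Hep-Bmal1KO the call of *Por* was lost in 5 of 14 alternatives and that of *Alas1* in 6 of 14. The P450 members were not called rhythmic in any of the 4 combinations without sex in the model. With sex as a covariate, *Cyp3a11* was called in Hep-Bmal1WT on NC (edgeR, adjusted p = 0.000195), as it was in males alone (edgeR, adjusted p = 0.0023), with adjusted p values up to 0.562 over its alternatives. On cdHFD *Cyp3a13* varied least of the members, with a highest ZT mean 1.13 times the lowest in both genotypes.

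A rhythm called in one genotype and not in the other does not show a difference, and the difference was tested directly. The genotype by rhythm terms called 0 of the 9 members by edgeR on NC (0.392% of all genes) and 0 on cdHFD (0.424%), where *Alas1* alone had an unadjusted p under 0.05 (0.0434). On NC, *Por* and *Alas1* had unadjusted p values under 0.05 (0.0169 and 0.0326, edgeR, adjusted p = 0.445 and 0.545), and without the libraries against their labels the adjusted p of *Por* was 0.0172 (edgeR). In cosine fits to variance-stabilized values (CircaCompare model), the amplitude of *Por* on NC was 0.66 ± 0.13 in Hep-Bmal1WT and 0.27 ± 0.18 in Hep-Bmal1KO on the log2 scale (SE, n = 24 each, unadjusted p of the difference 0.0761 from the CircaCompare fit across all genes). Without the libraries against their labels the *Por* amplitude differed by -0.54 ± 0.16 (unadjusted p = 0.00175, CircaCompare). The amplitude of *Alas1* was 0.93 ± 0.29 in Hep-Bmal1WT and 0.13 ± 0.27 in Hep-Bmal1KO (unadjusted p = 0.0511, CircaCompare). For amplitude on NC, 4.12% of all genes had an unadjusted p under 0.05 and 0.0193% an adjusted one, and 3.83% had a lower amplitude in Hep-Bmal1KO at an unadjusted p under 0.05. Amplitudes differed for 0 members at an unadjusted p under 0.05 (CircaCompare) in this and the other comparisons, against 2.91% of all genes for genotype on cdHFD (2.59% with a lower amplitude in Hep-Bmal1KO), 7.96% for diet in Hep-Bmal1WT (6.79% lower on cdHFD), and 4.26% for diet in Hep-Bmal1KO (3.33% lower on cdHFD).

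Peak times of the rhythmic members fell in the second part of the light phase or soon after lights off. On NC in Hep-Bmal1WT, *Nr1i2* peaked at ZT 9.40 ± 0.82, *Nr1i3* at ZT 11.4 ± 1.64, and *Por* at ZT 12.6 ± 0.72 (hours ± SE). On cdHFD *Por* peaked at ZT 7.91 ± 0.66, 4.71 ± 1.02 hours earlier (unadjusted p = 3.78e-05, adjusted p = 0.000237, CircaCompare). Peak times differed at an unadjusted p under 0.05 for 47.7% of the 979 genes rhythmic on both diets, and 42.5% peaked earlier on cdHFD, as *Por* did. *Nr1i2*, the other member called rhythmic on both diets, with a call on cdHFD lost in 7 of 14 alternatives, moved by -1.55 ± 1.38 hours (unadjusted p = 0.267, CircaCompare).

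*Alas1* peaked at ZT 14.4 ± 1.2 on NC, where it was not called rhythmic, and at ZT 6.95 ± 0.78 on cdHFD in Hep-Bmal1WT. The diet by rhythm terms were called for *Por* (edgeR, adjusted p = 0.00425) and *Alas1* (edgeR, adjusted p = 0.03) in Hep-Bmal1WT, against 6.19% of all genes. At ZT14, when *Alas1* averaged 581 CPM on NC, it averaged 113 CPM on cdHFD, and at ZT6 it averaged 121 CPM on NC and 361 CPM on cdHFD. At ZT6 the males measured 223 and 171 CPM on NC and 275 and 298 CPM on cdHFD. The females measured 48.6 and 41.4 CPM on NC and 444 and 427 CPM on cdHFD. In Hep-Bmal1KO the diet by rhythm terms called 0 members by edgeR against 0.907% of all genes, with *Cyp3a25* as the single member at an unadjusted p under 0.05 (0.0408). On cdHFD, *Por* peaked 1.77 ± 1.06 hours later in Hep-Bmal1KO than in Hep-Bmal1WT (unadjusted p = 0.103, CircaCompare) and *Alas1* 1.81 ± 1.43 hours later (unadjusted p = 0.21, CircaCompare), neither called.

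**Figure D4:**
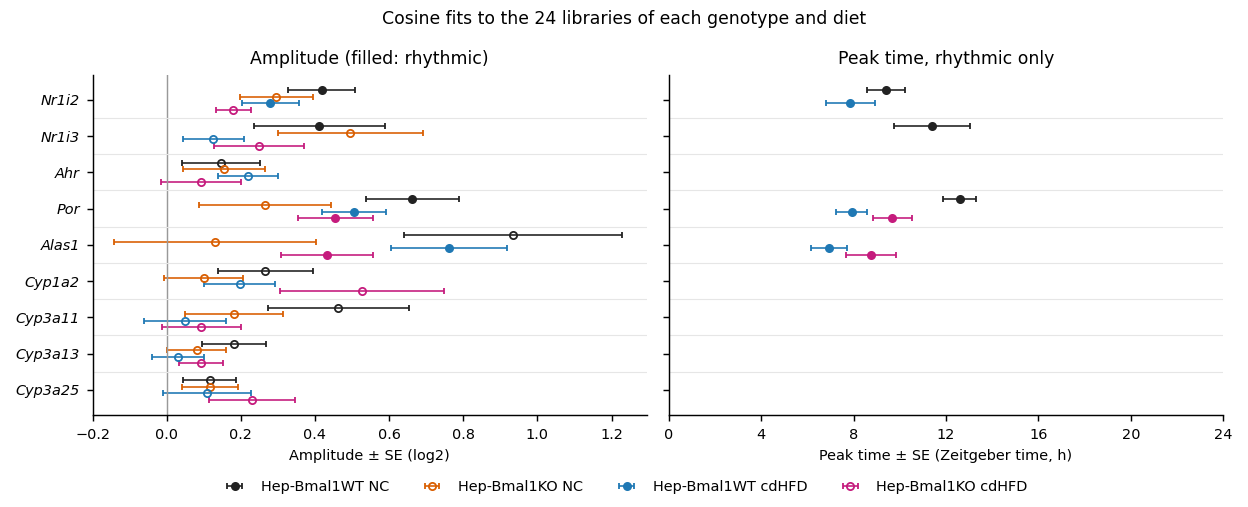
Amplitude (log2) and peak time (Zeitgeber hours) with SE from cosine fits to the 24 libraries of each genotype and diet, with filled points and peak times for members called rhythmic. *Por* peaked at ZT 12.6 in Hep-Bmal1WT on NC, at ZT 7.91 in Hep-Bmal1WT on cdHFD, and at ZT 9.68 in Hep-Bmal1KO on cdHFD.

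The clock outputs that bind D-box elements were examined beside the members. In Hep-Bmal1WT all 4 of *Dbp*, *Tef*, *Hlf*, and *Nfil3* were rhythmic on both diets, and the mean of *Dbp* peaked at ZT10 on NC (265 CPM) and at ZT6 on cdHFD (175 CPM). Mean *Alas1* was highest at those same ZTs, whereas mean *Por* and *Nr1i3* were highest at ZT10 on both diets, and in Hep-Bmal1KO on NC mean *Alas1* was highest at ZT2 and mean *Dbp* at ZT10. That ZT2 mean of *Alas1* joined males at 339 and 578 CPM with females at 92.4 and 105 CPM. On cdHFD, *Dbp* (log2 -0.72 ± 0.21, edgeR, adjusted p = 0.0204), *Tef* (log2 -0.36 ± 0.12, edgeR, adjusted p = 0.044), and *Hlf* (log2 -0.39 ± 0.11, edgeR, adjusted p = 0.0135) were lower in Hep-Bmal1KO. On NC 0 of these 4 genes were called for genotype by edgeR, with 3 at an unadjusted p under 0.05 (*Dbp*, *Hlf*, and *Nfil3*).

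Sex separated several members. Averaged over all groups, 3 of 9 were called for sex against 17.2% of all genes, 8.99% higher and 8.24% lower in females. *Nr1i3* was higher in females (log2 0.57 ± 0.07, edgeR, adjusted p = 1.11e-09), as was *Por* (log2 0.28 ± 0.08, edgeR, adjusted p = 0.0054), and *Cyp3a11* was lower in females (log2 -0.36 ± 0.09, edgeR, adjusted p = 0.00224). The term for sex by genotype over both diets called 0 members by edgeR against 0.0386% of all genes (0.0322% with a positive and 0.00643% with a negative difference), with 4 members, *Nr1i2*, *Nr1i3*, *Por*, and *Cyp1a2*, at an unadjusted p under 0.05.

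The sex difference in *Cyp3a11* was larger on NC than on cdHFD. On NC in Hep-Bmal1WT, *Cyp3a11* averaged 9701 ± 3096 CPM in males and 4322 ± 1201 CPM in females (SD, n = 12 each), and on cdHFD 2338 ± 580 CPM in 13 males and 2727 ± 662 CPM in 11 females. A test of sex by diet, chosen after these values had been seen, gave a log2 difference of 1.14 ± 0.13 for *Cyp3a11* (edgeR, adjusted p = 1.37e-10) and called 4 of the 9 members against 7.91% of all genes (3.68% positive and 4.23% negative). *Cyp3a25* moved the same way (0.42 ± 0.12, edgeR, adjusted p = 0.0152), with 679 ± 69.97 CPM in males and 523 ± 73.5 CPM in females on NC in Hep-Bmal1WT. *Nr1i3* (-0.42 ± 0.14, edgeR, adjusted p = 0.041) and *Por* (-0.46 ± 0.15, edgeR, adjusted p = 0.0384) moved the opposite way, and both calls were lost without the libraries against their labels (edgeR, adjusted p = 0.0777 and 0.065).

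The loss of *Por* in Hep-Bmal1KO on NC differed between the sexes. In males *Por* averaged 295 ± 110.1 CPM in Hep-Bmal1WT and 118 ± 21.3 CPM in Hep-Bmal1KO, and in females 325 ± 161 CPM and 239 ± 105 CPM (SD, n = 12 each). The 12 Hep-Bmal1KO males lay between 80.8 and 143 CPM and the 12 Hep-Bmal1KO females between 145 and 528 CPM, with no overlap, as for 0.328% of all genes with females above males. The difference of the genotype effects on NC, also tested after these values had been seen, was 0.91 ± 0.19 on the log2 scale (edgeR, adjusted p = 0.0135), in a test that called 0.515% of all genes (0.334% positive and 0.18% negative). Without the libraries against their labels it was 0.74 ± 0.13 (edgeR, adjusted p = 0.00117).

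**Figure D5:**
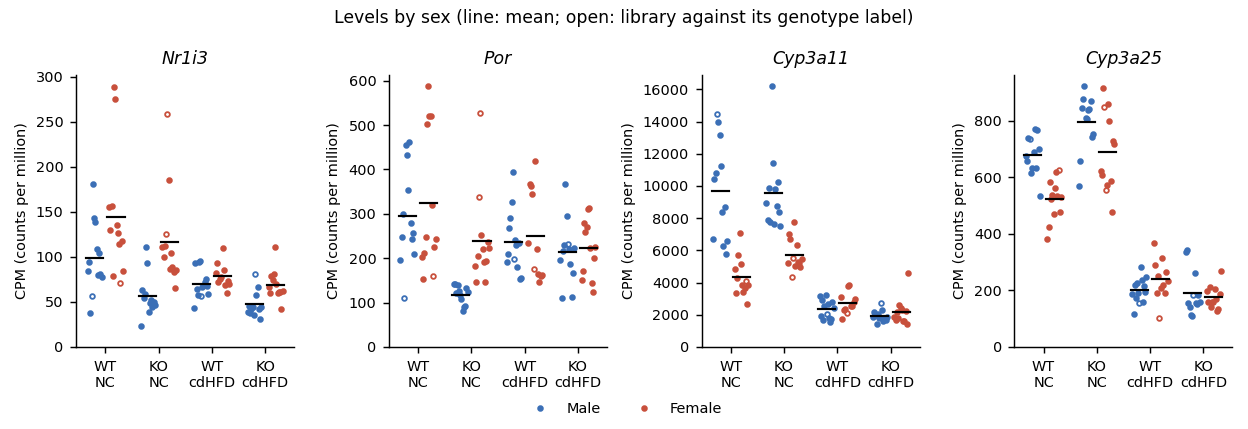
CPM of *Nr1i3*, *Por*, *Cyp3a11*, and *Cyp3a25* by sex within each genotype and diet, with 1 point per mouse, horizontal lines at the mean, and open points for libraries that went against their genotype label. On NC the *Cyp3a11* means were 9701 and 4322 CPM in Hep-Bmal1WT males and females, and the male and female points of *Por* in Hep-Bmal1KO on NC do not overlap.

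Genes around the members in the same pathways were taken from lists that are not exhaustive. Over all genes, edgeR called 12.6% for genotype on NC and 9.61% on cdHFD, with 5.61% and 4.99% as lower. For diet it called 55.7% in Hep-Bmal1WT and 61.9% in Hep-Bmal1KO, with 27% and 29.6% as lower. Counts from the lists are to be read beside these shares. Of 12 partners and cofactors of the receptors, 0 were higher and 1 was lower in Hep-Bmal1KO on NC, namely *Hnf4a*, a hepatocyte transcription factor that maintains PXR and CAR expression (log2 -0.29 ± 0.06, edgeR, adjusted p = 0.0011). On cdHFD 0 were higher and 3 lower, with *Hnf4a* again (-0.25 ± 0.04), the retinoid X receptor *Rxra* (-0.19 ± 0.05), and the small heterodimer partner *Nr0b2* (-0.69 ± 0.18). With diet, 3 of 12 were lower in Hep-Bmal1WT and 4 of 12 in Hep-Bmal1KO, where *Hnf4a* changed by -0.81 ± 0.06 and -0.77 ± 0.06. The median of the list was between -0.08 and -0.05 in these 4 comparisons.

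Other PXR and CAR targets moved in both directions. Of 14 such genes, 3 were higher and 3 lower in Hep-Bmal1KO on NC, against 7% and 5.61% of all genes. Among them were the P450 *Cyp2c55* at 2.87 ± 0.37 and the efflux transporter *Abcc4* at -1.34 ± 0.26. On cdHFD 3 were higher and 5 lower, against 4.62% and 4.99% of all genes. Among these were *Cyp2b10*, the classical CAR target, at 1.84 ± 0.31 and the efflux pump *Abcb1a* at -0.87 ± 0.17. Mean *Cyp2b10* thus stood higher in Hep-Bmal1KO on cdHFD while its receptor gene *Nr1i3* stood lower. With diet, 4 were higher and 7 lower in Hep-Bmal1WT, against 28.7% and 27% of all genes. In Hep-Bmal1KO 4 were higher and 9 lower, against 32.4% and 29.6% of all genes. The carboxylesterase *Ces2a* stood at -3.46 ± 0.14 in Hep-Bmal1WT and -4.07 ± 0.14 in Hep-Bmal1KO.

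Of 6 other AHR targets listed, 4 were measured. On NC 0 of the 4 were called for genotype by edgeR, with 0 at an unadjusted p under 0.05, and on cdHFD *Cyp1b1* was higher in Hep-Bmal1KO (log2 0.72 ± 0.23, edgeR, adjusted p = 0.0326). With diet, 2 were higher and 1 lower in both genotypes. Of all genes, 28.7% were higher and 27% lower in Hep-Bmal1WT, and 32.4% higher and 29.6% lower in Hep-Bmal1KO. *Cyp1b1* rose by 2.43 ± 0.33 in Hep-Bmal1WT and 2.91 ± 0.37 in Hep-Bmal1KO, and the quinone reductase *Nqo1* by 1.04 ± 0.11 and 0.89 ± 0.14, whereas the member *Cyp1a2* fell in both. The 4 AHR targets together were at a low level. Their sums had medians of 19.4 CPM on NC and 36.9 CPM on cdHFD in Hep-Bmal1WT, and 17.2 and 35.4 CPM in Hep-Bmal1KO. The part of shifts in cell types in these changes was not tested. Of the other Cyp3a genes, 4 of 6 were measured, and on NC *Cyp3a59* was higher in Hep-Bmal1KO (0.95 ± 0.08) while *Cyp3a16* (-3.54 ± 0.81) and *Cyp3a44* (-3.77 ± 0.84) were lower. The 4 Cyp3a genes together were at a low level on NC. Their sums had a median of 69.3 CPM in Hep-Bmal1WT and 124.6 CPM in Hep-Bmal1KO.

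Genes of the P450 cofactor pathways are given beside shares of all genes called of 55.7% and 61.9% for diet and 12.6% and 9.61% for genotype. All 4 electron donors beside *Por* were lower on cdHFD in both genotypes, with cytochrome b5 type B (*Cyb5b*) at -1.46 ± 0.07 in Hep-Bmal1WT and -1.69 ± 0.08 in Hep-Bmal1KO. For genotype, 0 of the 4 were called on NC by edgeR, with *Cyb5a* at an unadjusted p under 0.05 (0.00783), and 3 were lower on cdHFD. Of 11 genes of heme synthesis after *Alas1* and heme breakdown, 5 were lower and 3 higher on cdHFD in Hep-Bmal1WT and 7 lower and 2 higher in Hep-Bmal1KO. Ferrochelatase, which inserts iron into heme (*Fech*), stood at -0.57 ± 0.05 and -0.53 ± 0.05 on the log2 scale, and heme oxygenase 1 (*Hmox1*), which breaks heme down, stood at 2.16 ± 0.15 and 2.49 ± 0.13.

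Likeness between genes was described by Pearson's correlation of log2 CPM over the 24 group means, which share diet, genotype, and time of day, and no test was made of it. Among members, *Cyp3a11* and *Cyp3a25* had r = 0.942, *Nr1i2* and *Nr1i3* r = 0.826, and *Nr1i2* and *Por* r = 0.711, whereas *Ahr* and *Nr1i3* had r = 0.0166. Over 6904 genes with a mean of at least 10 CPM, the gene most like *Cyp3a25* was *Serpinc1* (r = 0.986), which encodes antithrombin. The gene most like *Cyp3a11* was *Uroc1* (r = 0.979), that most like *Cyp3a13* was *Clcn2* (r = 0.962), and that most like *Nr1i3* was *Cyp2d26* (r = 0.928). For *Cyp1a2* it was *Slco1b2* (r = 0.887), for *Por* *Pitpnc1* (r = 0.835), for *Alas1* *Rhbdd2* (r = 0.788), and for *Ahr* *Trip11* (r = 0.691).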

How the data were processed

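RNA from 96 livers was measured by BRB-seq, and the authors deposited raw counts per gene. Per the study's methods and the labels, reads were demultiplexed with the BRB-seq tools, aligned to mm10 with STAR, and counted with HTSeq and featureCounts. Unassigned reads, 22.57% to 39.86% of a library, stayed out of library sizes, and intervals from depth would cover counting alone. Whether reads of the same molecule were collapsed is not given in the sources used here. The 15548 genes with at least 100 counts over all libraries were kept. Levels are CPM after TMM scaling with edgeR 4.0.16 in R 4.3.3. Mean levels, interactions, and rhythm (cosine and sine, 24 hours) were tested with edgeR's quasi-likelihood test and Benjamini-Hochberg adjustment over all genes, with ZT as a factor for mean levels. Amplitude and peak time came from the CircaCompare model, fitted by least squares to values of DESeq2 1.42.0's variance-stabilizing transformation, with the study's threshold, an unadjusted p under 0.05. Genotype, diet, ZT, and sex were taken from the labels, replicates were numbered in accession order, and p values measure the spread among mice. The scripts were tested on simulated data. Alternatives were DESeq2 and its size factors, other count filters, sex as a covariate, each sex alone, the cosinor F test, JTK_CYCLE, and leaving out replicates or the libraries against their labels. Named genes were all members, up to 3 genes of smallest p in each list and comparison, and the genes most like each member, of which that for *Nr1i2* is not reported here. The members and lists were chosen with earlier results of these data known. Sequences were not used here.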

Additional observations from a re-analysis of the deposited data

Results flagged for a closer look

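In 9 of the 216 groups of 4 mice (4.17%), 1 mouse lay apart from the other 3 by Dixon's criterion, which chance meets in about 1 in 20 groups. On NC these were *Nr1i3* in Hep-Bmal1WT at ZT22 (117 CPM, the others 78.03 to 84.6), *Por* in Hep-Bmal1KO at ZT2 (183 CPM, the others 142 to 145), and, in 1 and the same Hep-Bmal1KO male at ZT14, *Nr1i2* (16.5 CPM, the others 23.6 to 24.6) and *Ahr* (19.9 CPM, the others 30.3 to 32.3). In Hep-Bmal1WT on cdHFD, *Ahr* at ZT10 was 55.6 CPM in a library that went against its label (the others 30.5 to 33.6). In Hep-Bmal1KO on cdHFD these were *Por* at ZT14 (313 CPM, the others 221 to 232), *Cyp3a13* at ZT14 (32.3 CPM, the others 60.0 to 65.1), *Cyp1a2* at ZT22 (664 CPM, the others 361 to 403), and *Cyp3a11* at ZT22 (4598 CPM, the others 1439 to 1854).

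Differences in rhythm, called between diets for *Por* and *Alas1* in Hep-Bmal1WT in a planned test, are given above. For mean level, 6 effects differed between diets, genotypes, or sexes by an edgeR test of the difference itself. Of these tests on mean level, 1 was planned and 5 were chosen after the values had been seen. In the planned test, the genotype difference of *Cyp3a25* changed by -0.58 on the log2 scale from NC to cdHFD. Its call was lost in 3 of 12 alternatives. In the tests chosen later, the sex difference changed with diet by -0.42 for *Nr1i3*, -0.46 for *Por*, 1.14 for *Cyp3a11*, and 0.42 for *Cyp3a25*. The sex difference of *Por* on NC changed with genotype by 0.91. The changes with diet for *Nr1i3* and *Por* were not called without the libraries against their labels (edgeR, adjusted p = 0.0777 and 0.065).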

How the results depend on the processing

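Over the alternatives planned, 1531 values of single members stayed on the same side of the threshold, 67 lost their call, 60 gained one, and 19 changed sign. Of the counts of called members, 41 moved by more than 1.5 times and 174 did not. On NC the count of 5 became 3 in females alone and 2 to 5 when single replicates were left out, and on cdHFD the count of 2 became 5 without the count filter, 1 in females alone, 5 without the libraries against their labels, and 1 to 4 when single replicates were left out. For genotype by diet the count of 1 became 2 with DESeq2, with sex as a covariate, and in females alone, 3 without the libraries against their labels, and 0 to 2 when single replicates were left out. At single ZTs the 3 calls became 7 without the libraries against their labels, and for sex by genotype the count of 0 became 4 without the filter. For diet in Hep-Bmal1WT the count of 8 became 5 in females alone, and for sex by diet the count of 4 became 2 without the libraries against their labels. Rhythm calls in Hep-Bmal1WT on NC went from 3 to 5 with sex as a covariate (*Alas1* and *Cyp3a11* added), in Hep-Bmal1KO on NC from 0 to 1 with DESeq2, 2 with sex as a covariate, and 1 in females alone, and in Hep-Bmal1WT on cdHFD from 3 to 1 with JTK_CYCLE. In Hep-Bmal1KO on cdHFD they went from 2 to 0 in males alone, 1 in females alone, 1 with the cosinor F test, 0 with JTK_CYCLE, and 0 to 1 when single replicates were left out. Rhythm by genotype on NC went from 0 to 1 without the libraries against their labels, and rhythm by diet in Hep-Bmal1WT from 2 to 0 in males alone and 0 to 2 when single replicates were left out. Amplitude calls went from 0 to 1 for genotype on NC without the libraries against their labels and 0 to 1 when single replicates were left out, and from 0 to 1 in males alone for genotype on cdHFD and for diet in Hep-Bmal1WT.

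The 19 changes of sign were all in differences that were not called, and the cause was not tested. For genotype on NC, *Cyp1a2* changed sign in males alone (-0.0852), without the libraries against their labels (-0.00518), and when single replicates were left out (-0.0333 to 0.1097), and *Nr1i2* in females alone (0.0225). For genotype on cdHFD *Alas1* ranged from -0.0464 to 0.0563 when single replicates were left out, and for diet in Hep-Bmal1KO *Nr1i2* was 0.0441 in males alone and *Por* -0.0547 in females alone. For genotype by diet, *Ahr* was -0.00206 without the filter, -0.00129 with sex as a covariate, and -0.0239 in males alone, and *Nr1i2* was -0.206 in females alone. When single replicates were left out, genotype by diet ranged from -0.0484 to 0.0837 for *Ahr*, from -0.0426 to 0.194 for *Nr1i2*, and from -0.0106 to 0.108 for *Cyp3a13*, sex from -0.119 to 0.1002 for *Alas1*, and sex by genotype from -0.174 to 0.106 for *Cyp3a25*. No paired analysis was made, since each library came from a different mouse sampled at a single ZT and the labels give no litters. Libraries of 1861740 to 9718615 counts with 4 mice per ZT limit what the tests at single ZTs can show.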
